A study of Arabidopsis thaliana with 8 samples.

Results

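Aquaporins are channel proteins that let water, and in some cases small uncharged solutes, cross membranes. The 35 aquaporin loci of Arabidopsis thaliana were taken from a list of loci by class and were all present among the 32678 genes of the deposited tables. They comprised 13 plasma membrane intrinsic proteins (PIP), 10 tonoplast intrinsic proteins (TIP), 9 NOD26-like intrinsic proteins (NIP) and 3 small basic intrinsic proteins (SIP). Gene names follow the hyphenated UniProt form, so PIP2-1 is the gene also written with a semicolon in Arabidopsis nomenclature. The transcripts were measured by RNA sequencing of whole wild-type seedlings of the Columbia accession, 10 days old and grown on MS medium under continuous light. The 4 groups, each with 2 biological replicates, were a mock treatment and exposure for 3 h to 50 μM of 1 compound, abscisic acid (ABA), its catabolite phaseic acid (PA) or the further product dihydrophaseic acid (DPA). ABA is a hormone made under drought that also keeps seeds dormant, PA is a ring-closed product of its hydroxylation, and DPA is PA with a ketone reduced to a hydroxyl group. A whole seedling mixes organs, so fewer cells of a type and less RNA per cell cannot be told apart.

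In plants, PIP proteins sit mainly in the plasma membrane, and PIP1 proteins often reach it together with PIP2 partners. TIP proteins sit in the vacuolar membrane, where they move water between the cytosol and the vacuole and support cell enlargement and osmotic buffering, while TIP3 proteins belong to the protein storage vacuoles of seeds. NIP proteins carry small solutes such as boric acid, arsenite and silicic acid, and SIP proteins reside in the endoplasmic reticulum. ABA lowers water loss through stomata and also acts on water movement through roots and leaves, where aquaporins form part of the path.

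The 2 libraries of each group are named by their size factor, the scaling number by which read counts are divided, since the deposited means carry no replicate number (the higher-factor and the lower-factor library). Library values are normalized counts (reads divided by that factor) and are always given with the library of higher size factor first. Gene reads, in units of 1e6, were 13.0 and 12.7 in mock, 15.9 and 11.5 under ABA, 15.6 and 11.5 under PA, and 13.5 and 13.0 under DPA. The marker genes RD29B, RAB18 and HAI1 were called higher with both ABA and PA in the authors' deposited table, and none of them with DPA. Of all tested genes, 10.3% were called higher there with ABA, 1.18% with PA and 0.00834% with DPA. RD29B, a classical ABA-induced gene, stood at 137 and 208 in mock, 26232 and 24838 under ABA, 863 and 813 under PA, and 130 and 190 under DPA. Of 14 root markers, 12 were higher in the mock library of higher size factor than in the other mock library. The margins ran from small, as for SHR (323 and 315), to wide, as for PHT1;1 (442 and 172). The share of all genes in that order was not counted. Markers of green tissue were abundant in every library, with sums over 7 genes of 165220 to 216673 normalized counts. None of the 7 was called in any comparison with mock in the authors' deposited table. The shares of all tested genes called there were 15.4% for ABA, 1.33% for PA and 0.0125% for DPA. The median log2 fold of the 7 was −0.22 for ABA, −0.02 for PA and −0.05 for DPA. Under ABA only GLDP1 had a higher mean than in mock (log2 fold 0.18). Their sum in mock was 181455 and 216673, so the lower-factor library was the higher one. The part of green-tissue RNA in the aquaporin values was not tested.

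A read was found for 34 of the 35 aquaporins in at least 1 library, and the mean over libraries reached 10 normalized counts for 29. The other 6, TIP1-3, TIP5-1, NIP3-1, NIP4-1, NIP4-2 and NIP7-1, ranged from 0 to 13.98 normalized counts over all libraries. Several of these are known from pollen or flowers, organs that seedlings of this age lack, and NIP4-1 had no read at all. Levels of different genes were compared per kb of exon. On that scale the highest in mock was TIP1-2, at a mean of 15349 normalized counts per kb, followed by TIP2-1 at 11534. The leading PIP genes were PIP1-2 at 8902, PIP2-7 at 8221 and PIP2-1 at 6655 per kb. The highest NIP was NIP6-1 at 239 per kb and the highest SIP was SIP2-1 at 725 per kb. The order thus opened with vacuolar genes, went on with abundant plasma membrane genes, and no NIP stood among the 15 highest.

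**Figure D1:**
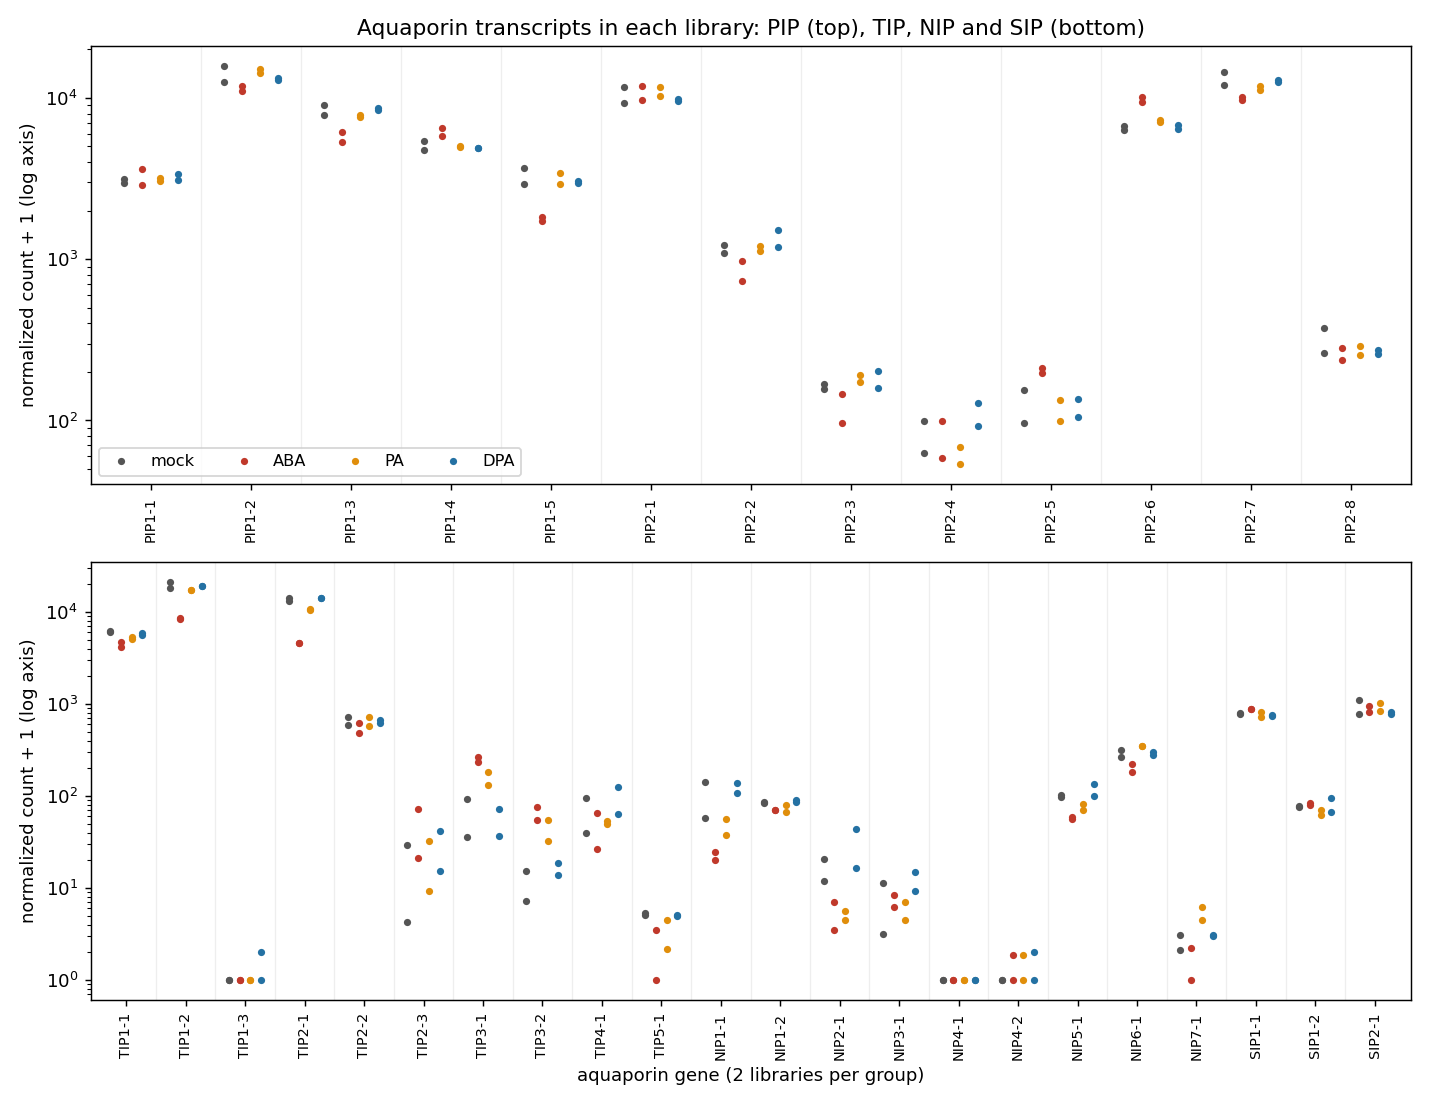
Normalized count plus 1 (log axis) of each of the 35 aquaporins in each library, with PIP genes above and TIP, NIP and SIP genes below, 2 points per group of mock, ABA, PA and DPA. The ABA points lie below the other groups for TIP1-2 and TIP2-1 and above mock for TIP3-1 and TIP3-2.

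ABA changed individual aquaporins in both directions, with the abundant vacuolar genes lower and the seed-type vacuolar genes higher. In the authors' deposited table, 9 of 33 tested aquaporins were called at an adjusted p under 0.05, 4 higher and 5 lower, where 15.4% of all tested genes were called (10.3% higher and 5.12% lower). The deposited calls were PIP2-5, PIP2-6, TIP3-1 and TIP3-2 as higher and PIP1-3, PIP1-5, TIP1-1, TIP1-2 and TIP2-1 as lower. By class this was 2 higher and 2 lower among 13 PIP genes, 2 higher and 3 lower among 9 tested TIP genes, and 0 of 8 tested NIP and 0 of 3 SIP genes. At an unadjusted p under 0.05, 15 of the 33 passed, 5 higher and 10 lower, including 3 NIP genes as lower and no SIP gene, against 23.6% of all tested genes at that threshold. The median log2 fold change in the deposited table was −0.30 over the aquaporins with a finite value and −0.01 over all genes.

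A second test, limma on the recovered library values, called all 9 of these in the same direction and 6 more, PIP1-4 as higher and PIP2-2, PIP2-7, NIP1-1, NIP5-1 and NIP6-1 as lower. It called 32.3% of all genes fitted (18.0% higher and 14.3% lower). Just outside the deposited threshold stood PIP2-7 with an adjusted p of 0.0560, NIP6-1 with 0.0587 and NIP5-1 with 0.0787 in the authors' deposited table, and just inside it PIP2-5 with 0.0465.

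The largest drop among the deposited calls was in TIP2-1 (AT3G16240, also delta-TIP, TAIR10.1 chr3:5505360-5507050, plus strand, 3 exons), a vacuolar water channel of shoots that can also pass ammonia. Its normalized counts were 13121 and 14308 in mock, 4629 and 4572 under ABA, 10810 and 10520 under PA, and 14132 and 14095 under DPA. The ABA libraries lay below all others, and the PA libraries lay between ABA and mock without overlapping either. The fold with ABA in the authors' deposited table was 0.335, with an adjusted p of 5.67e-33. In the limma fit the log2 change was −1.57 with an SE of 0.0807. TIP2-1 shares 120 exon bases with PnsB3 on the opposite strand, and PnsB3 was not called with ABA (log2 fold −0.29, adjusted p 0.257, in the authors' deposited table). TIP2-1 also shares 46 exon bases (3.87%) with the noncoding AT3G03265 on the opposite strand, which was not among the genes counted.

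TIP1-2 (AT3G26520, chr3:9722443-9723904, minus strand, 2 exons), a gamma-type vacuolar channel, was the most abundant aquaporin per kb in mock. Its counts were 18236 and 21365 in mock, 8383 and 8563 under ABA, 17258 and 17356 under PA, and 19343 and 18954 under DPA. The ABA libraries stood apart from the other 6, which lay between 17258 and 21365. The deposited fold was 0.428 in the authors' deposited table, with an adjusted p of 3.12e-12, and the limma log2 change was −1.22 with an SE of 0.0980. TIP1-1 (AT2G36830, chr2:15445294-15446621, plus strand), its closest relative by class with 81.1% coding identity, moved less. TIP1-1 stood at 5987 and 6262 in mock, 4196 and 4758 under ABA, 5130 and 5358 under PA, and 5865 and 5684 under DPA. Mock and ABA did not overlap, and the authors' deposited table gave a fold of 0.731 with an adjusted p of 0.00244.

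The 3 genes made up most of the vacuolar total. Summed over the 10 TIP genes, the mean was 40457 normalized counts in mock and 18506 under ABA, a log2 ratio of −1.13, while PA gave 34132 (log2 ratio −0.25) and DPA 39876 (−0.02). The PIP sum was 66154 in mock and 60356 under ABA, a log2 ratio of −0.13. As a share of the aquaporin level per kb, TIP genes took 44.1% and 42.7% in mock, 28.8% and 27.6% under ABA, 38.9% and 40.3% under PA, and 43.7% and 44.1% under DPA. PIP genes took 53.4% and 54.9% of that level in mock and 67.9% and 69.2% under ABA. The aquaporin pool of the ABA libraries thus held relatively more plasma membrane and fewer vacuolar transcripts, in both libraries, than that of any other group. All 35 aquaporins together took 0.756% and 0.849% of gene reads in mock and 0.557% and 0.605% under ABA.

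**Figure D2:**
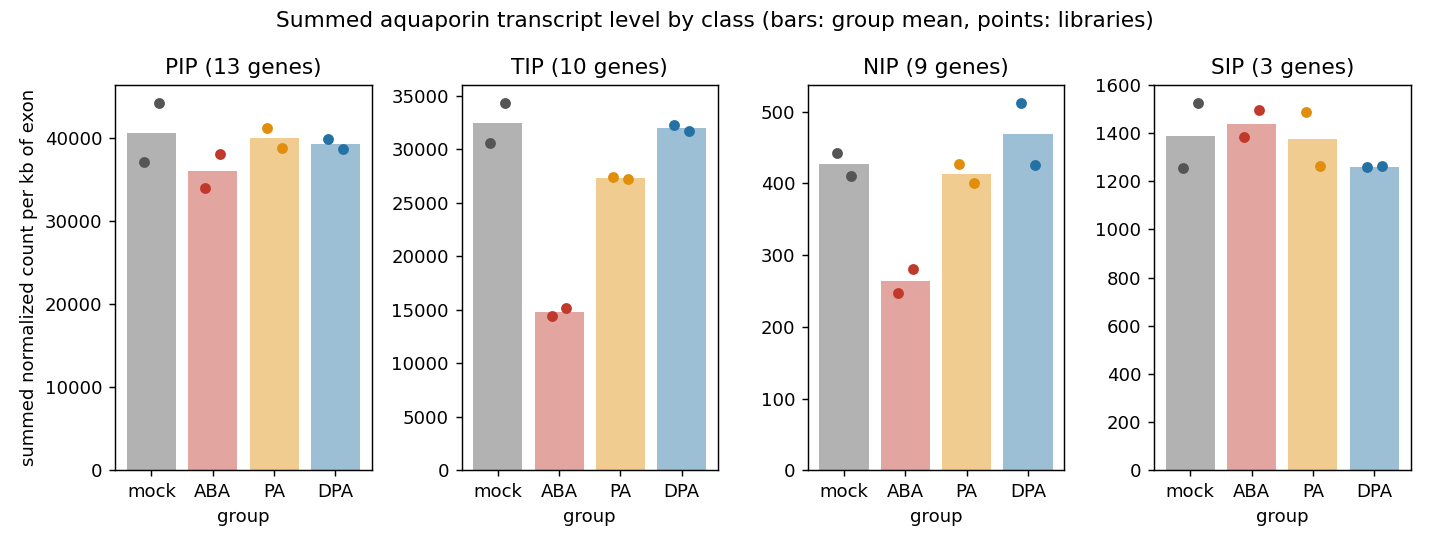
Summed normalized count per kb of exon for each aquaporin class, with bars for the group mean of 2 libraries and points for the libraries, on axes that start at 0. The TIP sum with ABA, at 14424 and 15193 per kb, lies below every other library, while the PIP sum with ABA overlaps that of mock and lies below those of PA and DPA.

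The seed-type vacuolar genes went the other way. TIP3-1 (AT1G73190, alpha-TIP, chr1:27521944-27523332, plus strand) had normalized counts of 34.7 and 91.6 in mock, 236 and 261 under ABA, 182 and 132 under PA, and 36.0 and 71.2 under DPA. TIP3-2 (AT1G17810, beta-TIP, chr1:6130025-6131627, plus strand) had 6.13 and 14.2 in mock, 53.9 and 74.7 under ABA, 53.9 and 31.6 under PA, and 13.0 and 17.6 under DPA. For both genes the ABA and the PA libraries all lay above the mock and DPA libraries. The authors' deposited table gave folds with ABA of 3.93 (adjusted p 2.98e-09) for TIP3-1 and 6.34 (adjusted p 4.40e-06) for TIP3-2. With PA the authors' deposited table gave folds of 2.48 and 4.21, and neither was called (adjusted p 0.343 and 0.154). In limma only TIP3-2 was called with PA, at a log2 change of 2.02 with an SE of 0.425 and an adjusted p of 0.0445.

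Even with ABA both genes stayed low: TIP3-1 reached a mean of 211 and TIP3-2 of 54.8 normalized counts per kb, against 6568 for TIP1-2. Of 6 maturing seed markers, 5 were tested, and LEC1 was at 0 in every library. In the authors' deposited table OLEO1 and EM1 were called higher with ABA, by 1.79 and 5.15 (log2), where 10.3% of all tested genes were. ABI3 (adjusted p 0.0642), FUS3 (0.934) and CRA1 (0.508) were not called with ABA there. With PA only EM1 was called higher, by 2.38, where 1.18% of all tested genes were. The summed level of the 6 markers was 687 and 1549 in mock, 2029 and 2701 under ABA, 2884 and 1231 under PA, and 855 and 1479 under DPA. In mock, ABA and DPA the lower-factor library was the higher one for TIP3-1, TIP3-2 and the seed sum alike, and in PA the higher-factor library was the higher one for all 3. The part of seed-type RNA in the TIP3 values was not tested. Most of that sum came from CRA1, a cruciferin storage protein gene, at 623 and 1427 in mock.

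TIP3-1 shares 290 exon bases with AT1G73200 and TIP3-2 shares 91 with AT1G17820, each on the opposite strand. TIP3-2 also shares 462 exon bases (39.4%) with the noncoding AT1G05333, which was not among the genes counted. The protocol leaves unstated whether the libraries keep strand. If its reads were spread evenly over its exons, AT1G73200 would put 37.9 in the bases shared with TIP3-1 in mock and 49.6 with ABA. The mean counts of TIP3-1 itself were 63.2 in mock and 248 with ABA. In the same way AT1G17820 would put 8.15 in the bases shared with TIP3-2 in mock and 10.2 with ABA. TIP3-2 itself had mean counts of 10.2 and 64.3. These are reads of the neighbours, and whether any entered the TIP3 counts is not known. Neither neighbour was called with ABA (adjusted p 0.127 and 0.386 in the authors' deposited table).

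**Figure D3:**
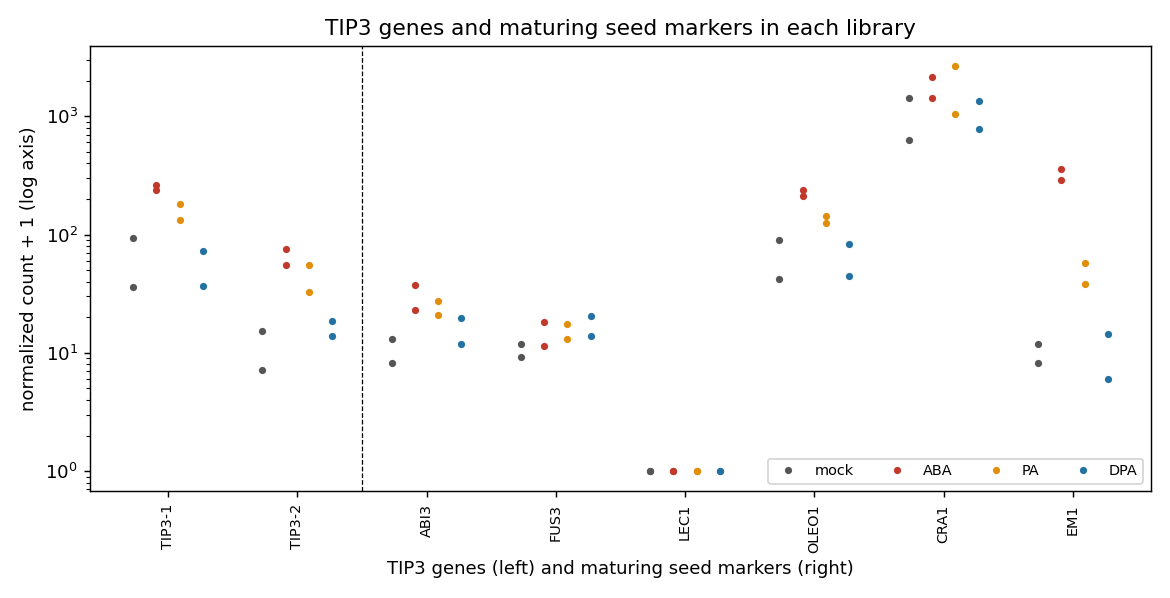
Normalized count plus 1 (log axis) of TIP3-1, TIP3-2 and 6 maturing seed markers in each library, 2 points per group. The ABA and PA points of the TIP3 genes lie above mock and DPA, EM1 shows the widest range, and LEC1 lies at 0 (drawn at 1) throughout.

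Promoter sequences are shown for the 5 TIP genes called with ABA in the authors' deposited table, which moved in opposite directions, as the 250 bases before the RefSeq gene start in TAIR10.1. Capitals mark the RY motif CATGCA, a seed-type element, the ABA response element ACGTGGC or ACGTGTC, and its core ACGTG, each searched on both strands.
TIP3-1 (chr1:27521694-27521943, plus strand): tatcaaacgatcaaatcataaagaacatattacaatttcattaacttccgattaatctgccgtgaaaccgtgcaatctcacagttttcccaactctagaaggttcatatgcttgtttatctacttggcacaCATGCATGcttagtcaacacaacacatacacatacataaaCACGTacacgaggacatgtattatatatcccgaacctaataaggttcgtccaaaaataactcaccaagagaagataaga
TIP3-2 (chr1:6129775-6130024, plus strand): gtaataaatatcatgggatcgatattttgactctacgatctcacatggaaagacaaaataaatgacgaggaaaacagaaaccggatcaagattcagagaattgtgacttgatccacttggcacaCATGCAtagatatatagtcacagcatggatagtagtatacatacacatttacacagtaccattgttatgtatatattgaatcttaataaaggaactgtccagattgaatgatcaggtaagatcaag
TIP1-1 (chr2:15445044-15445293, plus strand): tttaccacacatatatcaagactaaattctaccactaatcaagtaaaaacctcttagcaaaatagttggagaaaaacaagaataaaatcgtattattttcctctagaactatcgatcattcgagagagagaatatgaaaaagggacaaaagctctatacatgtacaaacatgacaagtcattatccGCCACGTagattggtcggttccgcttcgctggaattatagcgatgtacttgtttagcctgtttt
TIP1-2 (chr3:9723905-9724154, minus strand): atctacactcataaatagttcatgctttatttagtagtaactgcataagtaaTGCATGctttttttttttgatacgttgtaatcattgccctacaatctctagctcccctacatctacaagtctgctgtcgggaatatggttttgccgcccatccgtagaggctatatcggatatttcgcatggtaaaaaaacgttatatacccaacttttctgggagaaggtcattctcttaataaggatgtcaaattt
TIP2-1 (chr3:5505110-5505359, plus strand): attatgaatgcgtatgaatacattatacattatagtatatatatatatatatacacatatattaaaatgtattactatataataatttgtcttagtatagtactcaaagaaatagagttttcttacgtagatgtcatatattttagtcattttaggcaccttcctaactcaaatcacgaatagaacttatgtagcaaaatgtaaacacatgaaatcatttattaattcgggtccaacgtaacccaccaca

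Positions count back from the base before the gene start. TIP3-1 held overlapping RY matches that begin at −119 and −117 and an ACGTG core at −79, and TIP3-2 held an RY match at −126. TIP1-1 held the only ABA response element found among the aquaporins, at −64, and overlapping it an ACGTG core at −62. TIP1-2 held an RY match at −198, and TIP2-1 held none of the motifs. Among the other aquaporins called lower with ABA in the deposited table, PIP1-5 held an RY match at −9, so RY matches were present in promoters of genes that rose and of genes that fell. An RY match was found in 10 of the 35 aquaporin windows and in 8.43% of all 27443 windows of this length, an ABA response element in 1 of 35 and in 6.39% of all, and the core ACGTG in 4 of 35 and in 22.9%. The drought response motif CCGAC, which is not marked by capitals, was found in 4 of 35 windows and in 11.97% of all. It lay in TIP1-1 at −51, TIP1-2 at −123, PIP1-3 at −134 and PIP2-5 at −124. A match says only that these letters are present in the window.

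Among the plasma membrane genes, ABA raised PIP2-6 and PIP2-5 and lowered PIP1-3 and PIP1-5. PIP2-6 (AT2G39010, chr2:16291280-16294101, plus strand) is a PIP2 isoform known mainly from leaves. Its normalized counts were 6354 and 6736 in mock, 9466 and 10066 under ABA, 7105 and 7295 under PA, and 6439 and 6751 under DPA. Mock and DPA overlapped, PA lay slightly above both, and ABA lay well above. The authors' deposited table gave a fold of 1.49 with an adjusted p of 6.80e-05 for ABA. PIP2-6 went from 4.26% and 3.90% of the aquaporin level per kb in mock to 8.81% and 8.51% with ABA.

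PIP2-5 (AT3G54820, chr3:20301759-20304309, plus strand), a low-level isoform, stood at 95.01 and 153 in mock, 197 and 209 under ABA, 98.5 and 133 under PA, and 135 and 104 under DPA. ABA lay above the other 6 libraries, and the mock libraries differed widely. The authors' deposited table gave a fold of 1.64 with an adjusted p of 0.0465. This call was not stable in limma, where it was lost without either ABA library (adjusted p 0.114 without the higher-factor and 0.154 without the lower-factor one) and without the higher-factor mock library (0.204).

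PIP1-5 (AT4G23400, chr4:12220641-12222468, plus strand) stood at 2930 and 3702 in mock, 1724 and 1826 under ABA, 3435 and 2916 under PA, and 3049 and 2973 under DPA. PIP1-3 (AT1G01620, chr1:225665-227543, minus strand) stood at 7843 and 9096 in mock, 5336 and 6151 under ABA, 7871 and 7634 under PA, and 8610 and 8384 under DPA. For both PIP1 genes the ABA libraries lay below the other 6. The authors' deposited table gave folds with ABA of 0.535 (adjusted p 7.15e-04) for PIP1-5 and 0.678 (adjusted p 0.00203) for PIP1-3. PIP1-4 has the coding sequence closest to that of PIP1-3 of any aquaporin, at 85.0% identity, and had 4735 and 5377 in mock but 5838 and 6503 under ABA. Its mock and ABA libraries did not overlap, in the direction opposite to PIP1-3. In the authors' deposited table PIP1-4 was not called (fold 1.22, adjusted p 0.137), while limma called it (log2 change 0.29 with an SE of 0.0878, adjusted p 0.0320).

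The 3 most abundant PIP genes per kb were not called in the deposited table. PIP1-2 stood at 12622 and 15809 in mock, 11104 and 11858 under ABA, 15036 and 14217 under PA, and 13329 and 12972 under DPA. PIP2-7, a PIP2 isoform of which TSPO is a known partner, stood at 11944 and 14413 in mock, 9646 and 10124 under ABA, 11864 and 11236 under PA, and 12960 and 12582 under DPA. PIP2-1, a water channel that OST1 can phosphorylate in guard cells, stood at 9240 and 11698 in mock, 9681 and 11839 under ABA, 11751 and 10349 under PA, and 9886 and 9585 under DPA. ABA lay below mock for PIP1-2 and PIP2-7, and for PIP2-1 the libraries of each compound overlapped the mock range. Limma called PIP2-7 with ABA (adjusted p 0.0136) and not the other two. It gave log2 changes of −0.30 (95% interval −0.55 to −0.05) for PIP1-2, −0.41 (−0.64 to −0.18) for PIP2-7 and 0.04 (−0.26 to 0.35) for PIP2-1.

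PIP2-2 stood at 1226 and 1088 in mock, 733 and 980 under ABA, 1206 and 1126 under PA, and 1523 and 1189 under DPA. Its neighbour PIP2-3, known as RD28 for its response to desiccation, stood at 156 and 168 in mock, 95.7 and 146 under ABA, 171 and 189 under PA, and 203 and 159 under DPA. Both lay lower with ABA than in mock and neither was called in the authors' deposited table. The pair are near copies: 14.7% of the 50-base stretches of PIP2-2 exons and 16.5% of those of PIP2-3 occur elsewhere in the genome, so reads may be split between them or lost. The remaining genes PIP1-1, PIP2-4 and PIP2-8 were called in none of the 6 comparisons.

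**Figure D4:**
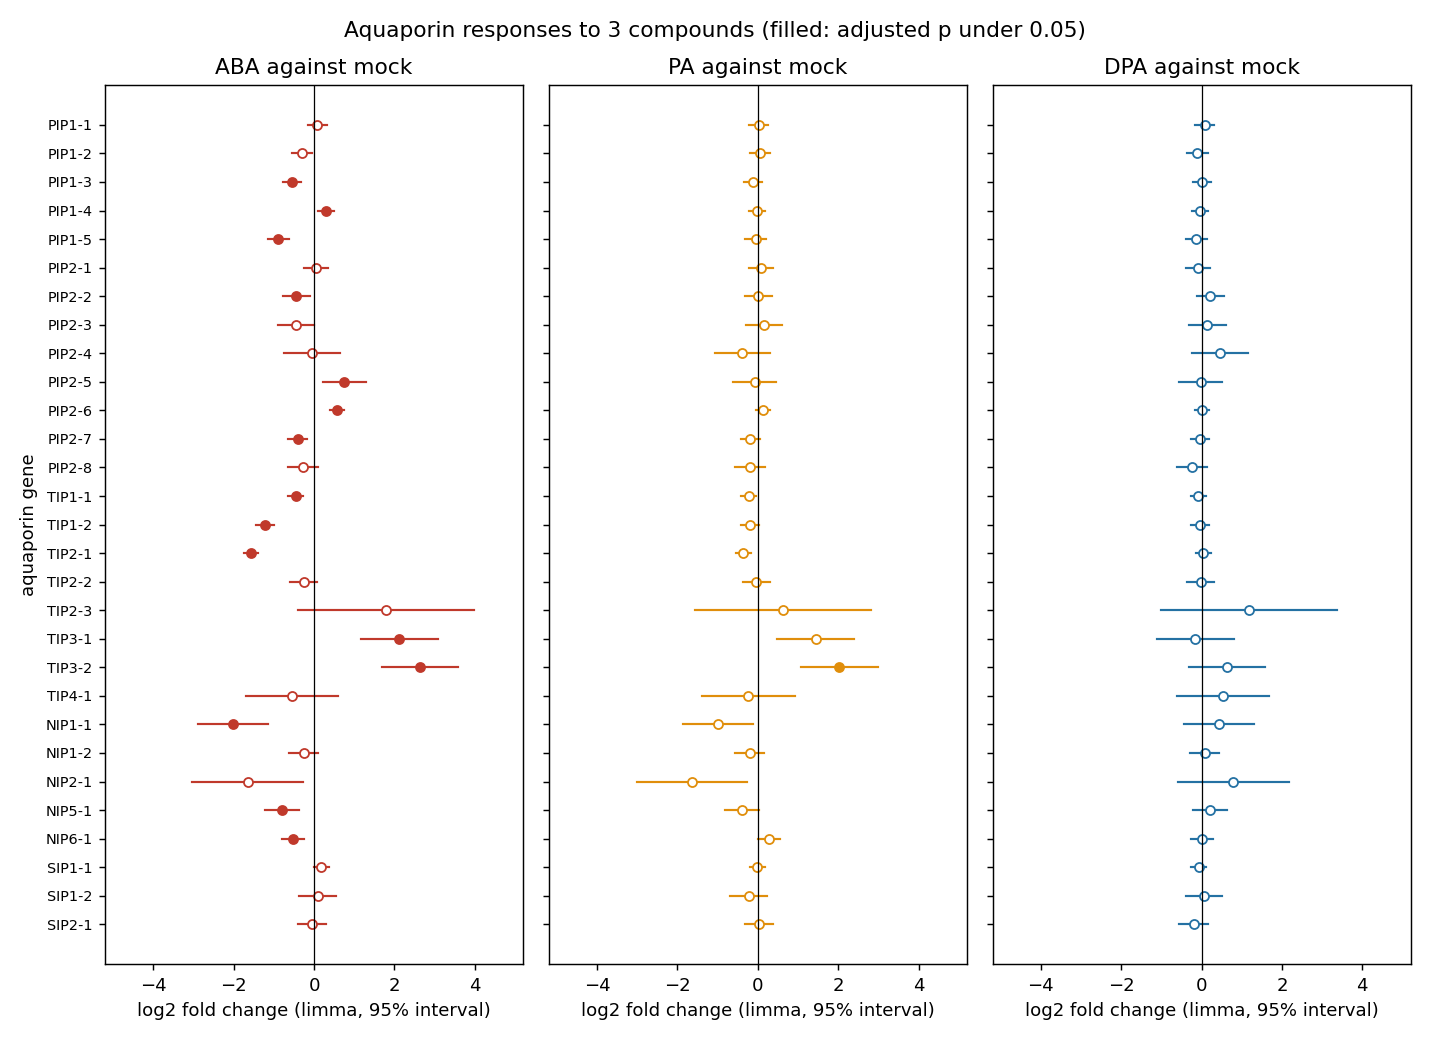
Log2 fold change from limma with its 95% interval for the 29 aquaporins fitted, for ABA, PA and DPA against mock, with filled points where the limma adjusted p is under 0.05. The points spread to both sides with ABA, only TIP3-2 is filled with PA, and none is filled with DPA.

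With ABA 6 of the 9 NIP genes had a lower mean than in mock, 2 a higher one and NIP4-1 stood at 0 in both, and none was called in the authors' deposited table. Summed over the 9 NIP genes, the mean was 593 normalized counts in mock, 361 under ABA, 556 under PA and 660 under DPA. NIP6-1, a boric acid channel of young shoots, stood at 266 and 314 in mock, 183 and 220 under ABA, 349 and 351 under PA, and 303 and 280 under DPA. NIP5-1, the root boric acid channel, stood at 102 and 95.9 in mock, 55.7 and 57.6 under ABA, 80.5 and 69.0 under PA, and 134 and 98.1 under DPA. Both lay below mock in the ABA libraries without overlap. Limma called both with ABA, NIP6-1 at −0.52 with an SE of 0.125 (adjusted p 0.0108) and NIP5-1 at −0.80 with an SE of 0.188 (adjusted p 0.0101). NIP6-1 shares 26 exon bases with AT1G80750 on the opposite strand, which fell with ABA by 0.64 (log2) in the authors' deposited table (adjusted p 0.0145).

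NIP1-1, an arsenite-permeable channel of roots, stood at 140 and 56.7 in mock, 19.1 and 23.3 under ABA, 54.8 and 36.2 under PA, and 139 and 105 under DPA. NIP2-1, a root lactic acid channel, stood at 19.4 and 10.9 in mock, 6.09 and 2.45 under ABA, 3.43 and 4.68 under PA, and 42.9 and 15.5 under DPA. For both genes ABA and PA were at or below the lowest mock library. Limma gave NIP1-1 a log2 change of −2.03 with ABA (SE 0.387, adjusted p 0.00332), whereas in the authors' deposited table its fold of 0.216 was not called (adjusted p 0.188). NIP2-1 shares 838 of its exon bases (59.7%) with the noncoding AT2G08660 on the opposite strand, which was not among the genes counted. Of the 50-base stretches of NIP2-1 exons, 10.4% recur elsewhere in the genome, so the low counts of NIP2-1 are uncertain. NIP1-2, with 84.0% coding identity to NIP1-1, stood at 82.8 and 83.9 in mock and 69.6 and 69.8 under ABA and was called in no comparison.

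Some of these low-level values were uneven between libraries of 1 group, as root markers were. In mock the library of higher size factor was the higher one for NIP1-1, NIP2-1 and NIP3-1, and also for TIP2-3 (28.6 and 3.27) and TIP4-1 (94.0 and 38.2), which are root-type vacuolar channels. The same order held for these 5 genes in DPA, where TIP2-3 stood at 40.9 and 14.5 and TIP4-1 at 123 and 62.0. The markers showed the same pattern: PHT1;1, a root phosphate transporter, stood at 442 and 172 in mock and 620 and 299 with DPA, and CASP1, a Casparian strip protein, at 119 and 53.4 in mock and 177 and 85.7 with DPA. Among the 14 root markers 12 were higher in that library in mock, 12 in DPA and 11 in PA, but 2 in ABA, where 11 were lower. With ABA, NIP2-1 was higher in the higher-factor library, and with PA, NIP2-1 and TIP4-1 (48.8 and 52.6) were lower in it. The raw reads were few, 7 and 2 with ABA and 4 and 4 with PA for NIP2-1. TIP4-1 had 57 and 45 reads with PA. Whether these aquaporins depart from the order of the markers cannot be told from so few reads. The sum of the 13 root markers other than PYK10 was 2871 and 2352 in mock, 1737 and 1907 under ABA, 2197 and 2180 under PA, and 3331 and 2555 under DPA. With ABA, PYK10, IRT1 and PHO1 of the 14 root markers were called lower in the authors' deposited table, where 5.12% of all tested genes were. The part of root RNA in the NIP values was not tested.

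**Figure D5:**
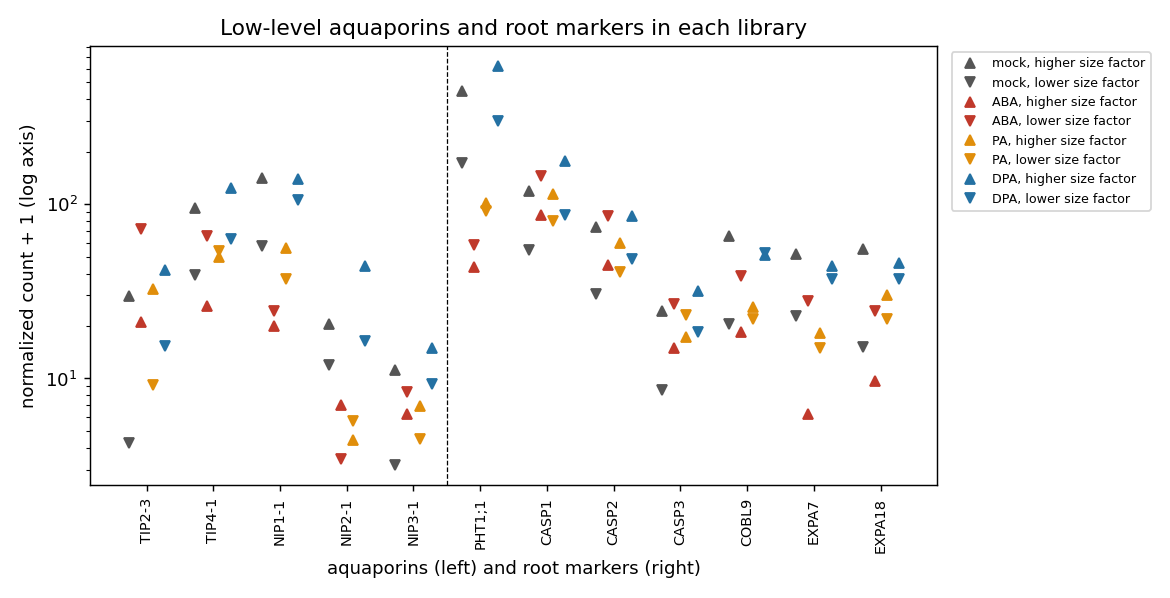
Normalized count plus 1 (log axis) of 5 low-level aquaporins and 7 root markers in each library, with upward triangles for the library of higher and downward triangles for that of lower size factor. In mock the upward triangle lies above the downward one for all 12 genes shown, and of the 14 root markers SCR and PHO1, which are not drawn, went the other way in mock.

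The SIP genes showed little movement. SIP2-1 stood at 773 and 1089 in mock, 826 and 958 under ABA, 1022 and 845 under PA, and 818 and 781 under DPA. All 6 treated libraries lay within the mock range. It shares 147 exon bases with CRD1 on the opposite strand, a chlorophyll synthesis gene at 19372 and 22748 in mock. Reads of CRD1 spread evenly would put 2074 in the shared bases, more than the 931 mean counts of SIP2-1, so the level of SIP2-1 is uncertain. SIP1-1 stood at 767 and 797 in mock, 878 and 886 under ABA, 826 and 720 under PA, and 737 and 750 under DPA. ABA lay above the other groups for SIP1-1 by a small margin. No SIP gene was called against mock in the authors' deposited table or in limma.

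With PA against mock, 0 of 33 tested aquaporins were called in the authors' deposited table, where 1.33% of all genes were called (1.18% higher and 0.146% lower). At an unadjusted p under 0.05, 4 passed, TIP3-1 and TIP3-2 as higher and TIP2-1 and NIP2-1 as lower, where 4.41% of all genes passed, and limma called 1 of 29, TIP3-2, against 2.15% of all genes (1.84% higher and 0.311% lower). TIP2-1 with PA was not called, with a fold of 0.778 and an adjusted p of 0.189 in the authors' deposited table and a limma log2 change of −0.36 (95% interval −0.54 to −0.18, adjusted p 0.0589). TIP1-2 with PA had a limma log2 change of −0.19 with an interval of −0.41 to 0.03.

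With DPA against mock, 0 of 34 tested aquaporins were called in the authors' deposited table, where 0.0125% of all genes were called (0.00834% higher and 0.00417% lower). None passed an unadjusted p under 0.05 there, where 0.918% of all genes passed, and limma called 0 of 29 and 0 of all genes. The intervals bound the changes of the abundant genes: the limma log2 change with DPA lay between −0.14 and 0.22 for TIP2-1, between −0.26 and 0.18 for TIP1-2 and between −0.17 and 0.19 for PIP2-6. For low genes they were wide, from −1.11 to 0.80 for TIP3-1.

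The compounds were also set against each other directly, at the same dose and time, with limma on the library values in 3 pairs and adjustment over all 19617 genes within each pair. These contrasts do not use the mock libraries except for the shared estimate of spread. Between PA and ABA, 8 of 29 aquaporins were called, 5 higher and 3 lower with PA, against 19.9% of all genes (7.34% higher and 12.6% lower). TIP2-1 was higher with PA by 1.21 (SE 0.0807, adjusted p 1.34e-05) and TIP1-2 by 1.03 (SE 0.0980, adjusted p 9.86e-05) on the log2 scale. PIP1-5, NIP6-1 and PIP1-3 were higher with PA by 0.83, 0.80 and 0.44, and PIP2-6, PIP1-4 and PIP2-5 were lower, at log2 differences of −0.44, −0.30 and −0.82. For the TIP3 genes the difference between PA and ABA was not called, at −0.68 (95% interval −1.63 to 0.28) for TIP3-1 and −0.61 (−1.56 to 0.35) for TIP3-2, which leaves room for a difference of more than 1 on that scale.

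Leaving out 1 library at a time, 5 of the 8 calls between PA and ABA held in every fit, TIP2-1, TIP1-2, PIP1-5, PIP2-6 and NIP6-1. PIP1-4 and PIP2-5 were lost without any 1 of the 4 libraries (adjusted p 0.0568 to 0.229 and 0.0565 to 0.234), and PIP1-3 without either PA library as well as without the higher-factor ABA library (adjusted p up to 0.114).

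Between DPA and ABA, 18 of 29 aquaporins were called, 12 higher and 6 lower with DPA, against 34.1% of all genes (15.5% higher and 18.6% lower). TIP2-1 was higher with DPA by 1.62 (SE 0.0807, adjusted p 7.96e-07), TIP1-2 by 1.18 (SE 0.0980, adjusted p 1.86e-05) and NIP1-1 by 2.46 (SE 0.387, adjusted p 9.99e-04). Higher with DPA by 0.37 to 2.44 were also TIP1-1, PIP1-3, PIP1-5, PIP2-2, PIP2-3, PIP2-7, NIP2-1, NIP5-1 and NIP6-1. Lower with DPA were TIP3-1 (log2 difference −2.27, SE 0.425, adjusted p 0.00271), TIP3-2 (−2.00, SE 0.425, adjusted p 0.00532), PIP2-6 (−0.57), PIP2-5 (−0.77), PIP1-4 (−0.33) and SIP1-1 (−0.25).

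In this pair 8 calls held without any 1 library, PIP1-3, PIP1-5, PIP2-6, TIP1-2, TIP2-1, TIP3-1, NIP1-1 and NIP5-1. PIP2-7 and SIP1-1 were lost without any 1 of the 4 libraries (adjusted p 0.0617 to 0.116 and 0.138 to 0.180). Without the higher-factor library of either DPA or ABA, PIP2-2, PIP2-3, TIP1-1 and NIP6-1 were lost (adjusted p up to 0.0636, 0.290, 0.0665 and 0.0759). PIP1-4 was lost without either DPA library and without the lower-factor ABA library (up to 0.117), and PIP2-5 without either ABA library and without the DPA library of lower size factor (up to 0.185). NIP2-1 was lost without the DPA library of higher or the ABA library of lower size factor (up to 0.128), and TIP3-2 without the latter (0.05004).

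The pair with the fewest calls was DPA and PA. TIP2-1 alone was called, higher with DPA by 0.40 (SE 0.0807, adjusted p 0.0276), against 3.83% of all genes (1.39% higher and 2.44% lower), and it was lost without any 1 of the 4 libraries (adjusted p 0.151 to 0.187). At an unadjusted p under 0.05, 7 of 29 passed in limma, 5 higher and 2 lower with DPA, a share of 24.1% against 19.4% of all genes. The TIP3 genes were lower with DPA than with PA by value, at log2 differences of −1.59 (95% interval −2.55 to −0.64, adjusted p 0.0758) for TIP3-1 and −1.39 (−2.35 to −0.44, adjusted p 0.110) for TIP3-2. For TIP1-2 and PIP2-6 the intervals of the difference were −0.07 to 0.37 and −0.30 to 0.05.

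Of 15 genes known to act on aquaporin proteins, 2 rose with ABA in the authors' deposited table, TSPO and OST1, and none fell. Of all tested genes, 10.3% were called higher there and 5.12% lower. TSPO (AT2G47770) encodes an ABA-induced membrane protein that binds PIP2-7 and delivers it for degradation by autophagy. Its normalized counts were 11.2 and 30.5 in mock, 2530 and 2722 under ABA, 131 and 123 under PA, and 11.98 and 24.8 under DPA. The ABA libraries stood far above all others, PA stood between, and DPA lay within the mock range. The folds in the authors' deposited table were 126 with ABA (adjusted p 3.36e-227) and 6.08 with PA (adjusted p 2.09e-10), and in limma PA and ABA differed by −4.36 (SE 0.413, adjusted p 9.66e-05) on the log2 scale. OST1, the SnRK2 kinase of stomatal ABA signalling, stood at 274 and 318 in mock and 938 and 875 under ABA, a rise of 1.61 (log2) in the authors' deposited table (adjusted p 1.56e-20). With PA, TSPO was the only one of the 15 called in that table, where 1.33% of all tested genes were. With DPA none of the 15 was called, where 0.0125% of all tested genes were. The 13 others include the ubiquitin ligases RMA1, RMA2 and RMA3 and the trafficking proteins SYP61, SYP121, VAMP721, VAMP722 and VAP27-1. Also among them are the kinases BAK1, SIRK1, QSK1 and CPK7 and the carbonic anhydrase BCA4. None of the 13 was called in any comparison with mock in the authors' deposited table. There SIRK1 stood just outside the threshold with ABA (log2 fold −0.43, adjusted p 0.0576). Its normalized counts were 589 and 621 in mock and 443 and 453 under ABA.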

How the data were processed

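Polyadenylated RNA of 8 seedling libraries was sequenced as single reads of 50 bp, per the labels' protocols, which do not say that strand was kept. The authors used TopHat 1.4.1, HTSeq, DESeq 1.8.3 and the TAIR10 build, per the submitters' processing notes. The authors deposited group means, a signal called normalized count here: per the file headers and the steps between values, reads were scaled by each library's size factor and averaged over 2 libraries. Each deposited fold is the ratio of 2 such means. The deposited p-values, with their adjusted form, come from the authors' use of DESeq as the notes list it. Rows that name no gene (5 per table) were left out: reads of no feature made 48.2% to 48.5% of the normalized totals and ambiguous reads 0.278% to 0.315%.

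A group mean adds whole reads of both libraries, each times a fixed step, and these reads were recovered for 100% of values above 0 (in simulated means, 91391 of 91391 were split right). Size factors were 0.979 and 0.917 (mock), 1.15 and 0.816 (ABA), 1.17 and 0.855 (PA), 1.00 and 0.968 (DPA). The planned main calls against mock are the deposited adjusted p under 0.05. Compounds were compared with limma 3.58.1 (R 4.3.3, moderated test with trend) on log2 of normalized counts plus 1, for 19617 genes with a mean of at least 10, all 4 groups fitted together with 4 residual degrees of freedom, Benjamini-Hochberg adjusted over genes. The test was tried on simulated data with 50 genes altered at each fold in each direction. Limma called 19.9% to 34.1% of genes in the real contrasts with ABA, far more than were altered here. The adjusted p depends on that share, so the simulated rates need not hold for those contrasts. In the layout of ABA against mock the test recovered 63.3% to 66.0% of 2-fold and 89.4% to 90.0% of 4-fold changes. It also made 19 false calls among 19616 genes fitted, to be weighed against the genes altered and not against all genes. Of 2-fold changes it recovered 64.0% to 77.6% for PA against ABA (19622 genes), 64.0% to 73.5% for DPA against ABA (19610), 51.0% to 72.0% for DPA against PA (19592), 54.4% to 68.0% for PA against mock (19615) and 52.0% to 62.0% for DPA against mock (19619). Alternatives were limma against mock, upper-quartile scaling, a pseudocount of 5, no minimum mean, a minimum of 50, fits of 2 groups, an adjusted p under 0.01, a normal test from the errors implied by the deposited p-values, and leaving out each library.

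Members and lists were chosen with earlier results of these data known. Values per library are given for members called in any comparison and for the most abundant of each class, and other members named were chosen after their values were seen. Positions, exons and promoters come from RefSeq's TAIR10.1. The ACGTG core was searched after the other motifs.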

Additional observations from a re-analysis of the deposited data

How the results depend on the processing

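With 2 libraries a group the precision is low, most of all for genes under about 100 normalized counts, and values cover whole seedlings. No paired analysis was possible because the deposited columns carry no replicate number. None of the alternatives reversed a direction. For single called members, 281 of 357 alternatives kept the call and 76 lost it. Of 132 alternatives of the 12 counts of called aquaporins, 90 stayed within 1.5 times the main count and 42 did not, and the causes were not tested. Upper-quartile scaling moved the median of all genes by −0.08 for ABA against mock. PIP2-5 lost its call against mock under upper-quartile scaling (adjusted p 0.0515) and with no minimum mean (0.0523).

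The count lower with ABA than mock was 5 in the deposited table and 10 in limma, 11 with upper-quartile scaling, 10 with a pseudocount of 5, 9 with no minimum mean, 10 with a minimum of 50 and 8 in a fit of 2 groups. The count higher with PA than mock was 0 in the deposited table and 1 in limma, with upper-quartile scaling and with a pseudocount of 5. Between PA and ABA, the 5 higher became 2 with implied errors and 9 with upper-quartile scaling and in the fit of 2 groups, and the 3 lower became 1 at an adjusted p under 0.01, 0 with implied errors, 1 with upper-quartile scaling and 1 with no minimum mean. Between DPA and ABA, the 12 higher became 3 with implied errors, and the 6 lower became 3 at an adjusted p under 0.01 and 1 with implied errors. Between DPA and PA, the 1 higher became 0 at an adjusted p under 0.01, with implied errors and with no minimum mean, and 3 in the fit of 2 groups, where the 0 lower became 2.

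Leaving out each library in turn, limma called 3 to 5 aquaporins higher and 6 to 11 lower with ABA than mock, 0 to 2 higher and 0 to 1 lower with PA, and 0 to 0 with DPA. Between PA and ABA it called 4 to 7 higher and 1 to 1 lower, between DPA and ABA 6 to 11 higher and 2 to 4 lower, and between DPA and PA 0 to 0.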
